A study of Mus musculus with 24 samples.

Results

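Kinesins are motor proteins that use ATP to move along microtubules or to take microtubule ends apart. One branch of the family works on the mitotic spindle, where its members push the poles apart, position chromosomes, shorten microtubule ends and build the midbody, and another branch hauls vesicles, endosomes and mitochondria through cells that need not divide. Centromere proteins (CENPs) mark the centromere and carry the kinetochore, the plate through which spindle microtubules grip a chromosome. Genes of the mitotic branch and of the kinetochore are known to be transcribed mainly late in the cell cycle, so a population with few dividing cells reads them weakly, whereas transport kinesins are read in resting cells too.

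The members were every row of the deposited expression table whose gene symbol began with Kif and a digit or with Cenp and a letter, which gave 58 of 23930 rows, a rule that uses no measured value although it was set with earlier results of these data known. By general knowledge of the motors they were divided into 11 mitotic kinesins, 13 transport kinesins, 13 other kinesins, 13 inner centromere proteins, 2 kinetochore CENPs (Cenpe and Cenpf), 3 other CENPs (Cenpb, Cenpj and Cenpv) and 3 rows that are neither a motor nor a CENP gene (Kif1bp, a kinesin-binding protein, Kif16bos, an opposite-strand transcript, and the pseudogene Kif4-ps). The 24 libraries came from spleens of untreated C57BL/6 mice and formed 6 groups of 4, namely Ly6C hi and Ly6C low CD11b+ cells of WT, Slc29a3-/- and Slc29a3-/- Tlr7-/- mice. Ly6C hi cells are the less mature monocytes and Ly6C low cells the mature patrolling ones, and the sample labels call both macrophages. Slc29a3 encodes a lysosomal nucleoside transporter and Tlr7 an endosomal sensor of single-stranded RNA and nucleosides. The Slc29a3-/- allele carries a CRISPR-made stop codon and the Tlr7-/- allele a deletion, both in every cell of the animal, and the WT mice were bought from a breeder rather than described as littermates. Age was not given for these mice, and cells had been gated on Ly6C and Fcgr4 after T, B, NK, neutrophil and erythroid cells had been removed with magnetic beads.

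The values were RPM, reads scaled to the same total in every library, for 1 amplicon per gene, so that levels were compared between libraries and never between genes. The spacing of the low values corresponded to 12311031 to 14572210 reads per library, and 3 reads, the count that a value of 0 still allows, corresponded to 0.206 to 0.244 RPM (counting error only). Amplicons of both targeted genes still gave reads in the mutants. Among Ly6C hi libraries the mean for Slc29a3 was 157.3 ± 21.0 RPM in the single mutant beside 188.5 ± 28.8 RPM in WT, and for Tlr7 316.8 ± 40.2 RPM in the double mutant beside 265.2 ± 52.4 RPM in WT (SD, n = 4), so the genotypes rest on the labels. The summed level of the 5 Ly6C low monocyte markers ran from 5152 to 10380 RPM in Ly6C low and from 417.7 to 2325 RPM in Ly6C hi libraries. Fcgr4, which is on this list, had been used to gate the cells. The other genes of the list, Ace, Cd36, Nr4a1 and Treml4, were also lower in Ly6C hi cells of every genotype, so the subsets fitted their labels. The neutrophil list stood apart, however. Its 9 genes in the table summed to 13850 to 21580 RPM in WT, 42680 to 82040 RPM in Slc29a3-/- and 6198 to 21660 RPM in Slc29a3-/- Tlr7-/- Ly6C hi libraries, with no gene of the list at 0. In bulk RNA of this kind, more cells of a type and more RNA per cell cannot be told apart.

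The stretches of 60 bases before the start of transcription are printed for 6 mitotic kinesin and centromere genes and for 3 transport kinesins, to show the promoter letters beside which the measured levels can be read (RefSeq, GRCm38.p6). Capitals mark TTTGAA, the letters of the cell cycle element known as CHR, CCAAT, the letters bound by NF-Y, and TTTNNCGC, an E2F-type sequence, each searched on both strands, so that TTCAAA and ATTGG are the same letters read on the opposite strand.
Kif11, chr19:37376322-37376381, plus strand: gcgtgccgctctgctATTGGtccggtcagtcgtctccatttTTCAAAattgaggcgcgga
Kif22, chr7:127042421-127042480, minus strand: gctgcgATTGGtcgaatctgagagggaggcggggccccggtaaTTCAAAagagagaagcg
Kif15, chr9:122951021-122951080, plus strand: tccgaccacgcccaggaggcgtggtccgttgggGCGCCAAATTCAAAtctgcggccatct
Kif18b, chr11:102925125-102925184, minus strand: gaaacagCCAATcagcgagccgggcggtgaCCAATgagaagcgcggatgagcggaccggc
Cenpn, chr8:116921680-116921739, plus strand: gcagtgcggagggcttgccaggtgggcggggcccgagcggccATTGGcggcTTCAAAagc
Cenpw, chr10:30200541-30200600, minus strand: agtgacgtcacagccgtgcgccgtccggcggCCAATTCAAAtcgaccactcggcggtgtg
Kif1c, chr11:70700488-70700547, plus strand: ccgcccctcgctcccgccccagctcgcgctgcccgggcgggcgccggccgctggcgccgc
Kif3b, chr2:153291356-153291415, plus strand: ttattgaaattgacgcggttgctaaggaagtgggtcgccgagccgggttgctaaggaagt
Kif16b, chr2:142901465-142901524, minus strand: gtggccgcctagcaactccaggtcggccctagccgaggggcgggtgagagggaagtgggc
In Cenpw the CCAAT and TTCAAA letters overlap, and in Kif15 the E2F-type letters run directly into TTCAAA. The 3 transport kinesins held none of the 3 motifs in the stretch shown. These stretches are chosen examples, so the contrast between them is not a count over the classes. Counted from the start, the transport kinesin Kif3a held CCAAT at -18, and a window of Kif1a held TTTGAA at -44. Kif3b held CCAAT at -69, just outside its stretch. The mitotic kinesins Kif14, Kif2c and Kif20b held none of the motifs in the 60 bases before the start.

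Over the full promoter windows, 250 bases before to 50 bases after the start, 51 of the 58 members had an entry, and Kif20a, Kif19a, Kif21b, Kif4-ps, Kif13b, Kif5a and Kif5b had none. TTTGAA was found in 9 of 10 windows of mitotic kinesins (90.0%), 4 of 15 windows of inner centromere genes (26.7%) and 1 of 12 windows of transport kinesins (8.33%), against 17.9% of all 32851 windows. CCAAT was found in 6 of 10, 13 of 15 (86.7%) and 4 of 12 (33.3%), against 37.4% of all windows. TTTGAA and CCAAT stood together in 6 of 10 mitotic kinesin windows, in none of the 12 transport kinesin windows and in 6.95% of all windows. A match describes letters in the window and not an occupied site.

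Of the 58 members, 44 could be tested in Ly6C hi cells, 41 in Ly6C low cells and 47 across both subsets, because a gene entered a fit only where 4 or more of its libraries reached 1 RPM. The 11 members never tested did not exceed 0.9 RPM in any library and were Kif12, Kif21a, Kif26a, Kif26b, Kif27, Kif2b, Kif6, Kif7, Kif16bos, Kif4-ps and Kif5c. Kif26a was at 0 in all 24 libraries. Most of these kinesins serve neurons, cilia or Hedgehog signaling. Kif18a, Kif17 and Cenph passed the filter across both subsets only through Ly6C hi libraries, so that their differences between subsets had to lie above 0 and their calls there are no test. A member was called when its fold change exceeded 1.5 and its Benjamini-Hochberg adjusted P from limma was below 0.05 over all genes tested. Every log2 fold change below is on the log2(RPM + 1) scale, which understates changes of weakly read genes.

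The question in Ly6C hi monocytes was which members differed in Slc29a3-/- cells and whether the difference needed Tlr7. In Slc29a3-/- Ly6C hi monocytes all 11 mitotic kinesins were higher than in WT, by 0.94 (Kif23) to 1.67 (Kif11) on the log2 scale with a median of 1.44, whereas none of the 10 tested transport kinesins was called higher and their median was 0.04. Both kinetochore CENPs and 9 of 13 inner centromere genes were called higher as well. Of the 44 tested members 24 were called higher and 3 lower, against 8.15% of all 10561 tested genes called higher and 14.3% called lower, and the median of all genes was -0.14. The median of the mitotic kinesins exceeded that of the transport kinesins by 1.40 on the log2 scale (SD between libraries 0.33). The libraries of the 2 genotypes did not overlap for 11 of 11 mitotic kinesins and 9 of 13 inner centromere genes, all above WT, against 11.9% of all genes lying wholly above WT. Of the transport kinesins none lay wholly above WT, and Kif1c and Kif3c lay wholly below, as did 21.8% of all genes.

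**Figure D1:**
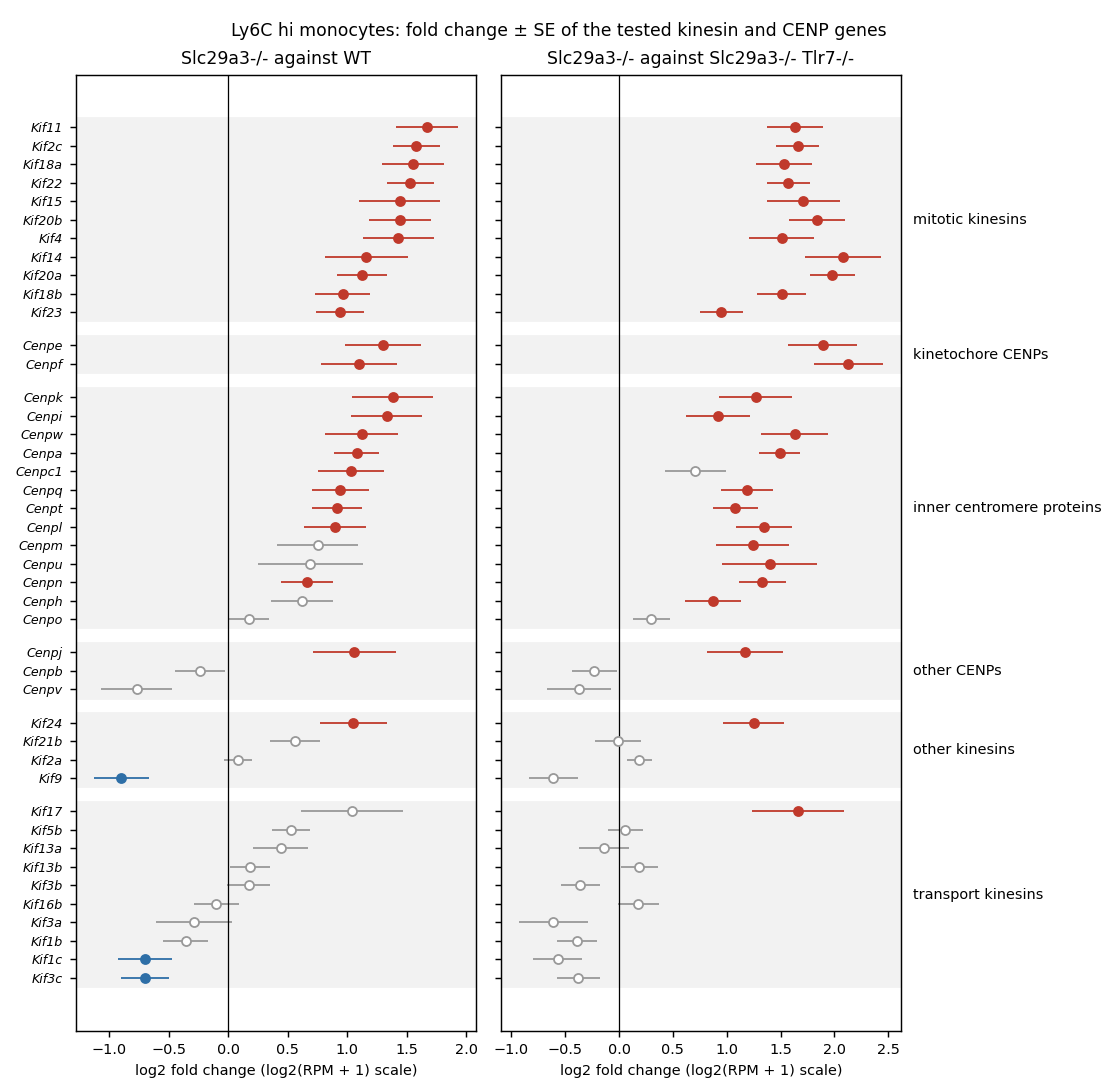
Log2 fold change on the log2(RPM + 1) scale (horizontal axes) with its SE (bars) for the 43 tested kinesin and CENP genes in Ly6C hi monocytes, Slc29a3-/- against WT on the left and against Slc29a3-/- Tlr7-/- on the right, 4 libraries per group. Filled red points were called higher, filled blue points called lower and open grey points not called. All 11 mitotic kinesins lie between 0.94 and 1.67 on the left, while the transport kinesins lie on both sides of 0.

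Kif11, the plus-end motor that pushes spindle poles apart, was read at 28.6, 25.5, 28.2 and 18 RPM in the 4 WT Ly6C hi libraries, at 74.4, 61.8, 109 and 84.5 RPM in the Slc29a3-/- libraries and at 24.8, 15.7, 24.7 and 42.3 RPM in the Slc29a3-/- Tlr7-/- libraries. The lowest Slc29a3-/- library lay above the highest library of both other genotypes. The fold change against WT was 1.67 ± 0.26 (SE, adjusted P = 0.00062), that is 3.17-fold. Kif2c, a depolymerase that removes faulty kinetochore attachments, showed the same separation, with 23.5, 23.0, 23.1 and 19.2 RPM in WT, 69.9, 42.9, 92.2 and 77.8 RPM in Slc29a3-/- and 24.7, 20.9, 17.7 and 20.9 RPM in Slc29a3-/- Tlr7-/- libraries (1.58 ± 0.20 against WT, adjusted P = 0.0002). The chromokinesins, which bind chromosome arms, moved by similar amounts. Kif22 was read at 16.3, 17.6, 18.3 and 13.9 RPM in WT and 43, 37.8, 68.2 and 54.2 RPM in Slc29a3-/- libraries (1.53 ± 0.20, adjusted P = 0.00022). Kif4 was read at 11, 11.9, 11.7 and 5.38 RPM and at 29.7, 17.9, 41.2 and 26 RPM (1.43 ± 0.30, adjusted P = 0.0035), and the low WT library was replicate 4. In the double mutant Kif22 spanned 13.4 to 20.7 RPM and Kif4 5.52 to 13 RPM, both overlapping WT.

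The motors of cytokinesis spanned a wider range. Kif20a, which brings the Aurora B complex to the central spindle, was read at 81.0, 75.4, 83.3 and 53.7 RPM in WT, at 174, 107, 166 and 202 RPM in Slc29a3-/- and at 52.6, 31.7, 33.6 and 42.7 RPM in Slc29a3-/- Tlr7-/- libraries. The Slc29a3-/- libraries stood highest, and the lowest WT library lay just above the highest double mutant library. The difference of Kif20a from WT was 1.12 ± 0.21 (adjusted P = 0.002). Kif23, the motor subunit of centralspindlin, had the smallest difference of the mitotic kinesins, with WT at 97.7, 88.3, 81.8 and 60.7 RPM and Slc29a3-/- at 139, 115, 217 and 169 RPM (0.94 ± 0.20, adjusted P = 0.0038). Its partner in centralspindlin, Racgap1, differed by -0.08 ± 0.23 (adjusted P = 0.83). Kif20b, another cytokinesis motor, at 37.3, 27.5, 27.8 and 22.5 RPM in WT and 81.9, 48.6, 94 and 101 RPM in Slc29a3-/- libraries, rose by 1.44 ± 0.26 (adjusted P = 0.0013).

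**Figure D2:**
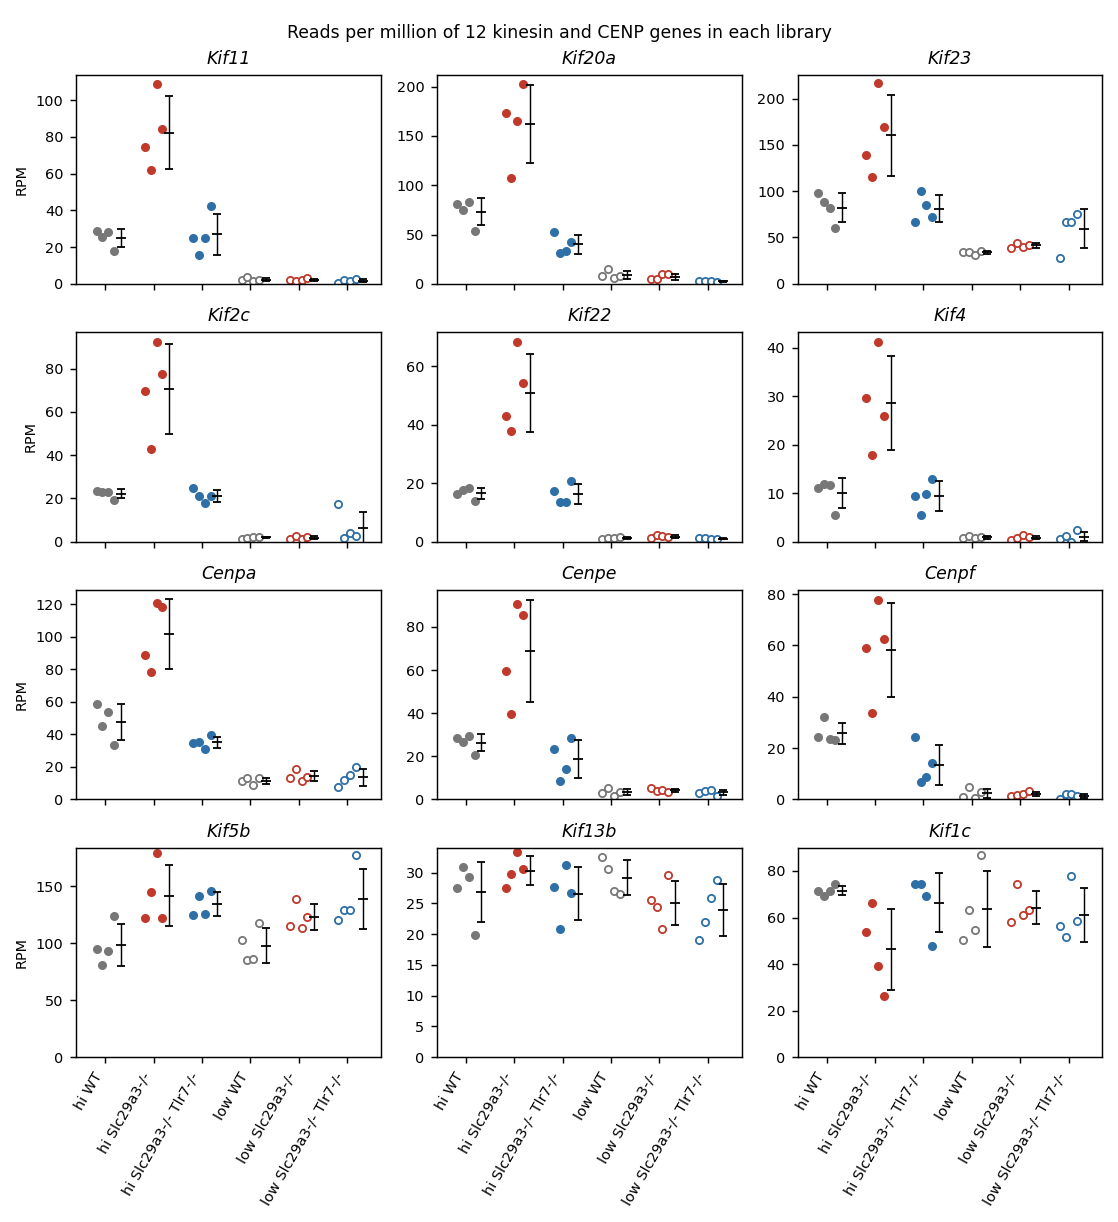
RPM (vertical axes, each starting at 0) of 12 members in every library, with filled points for Ly6C hi and open points for Ly6C low monocytes, grey for WT, red for Slc29a3-/- and blue for Slc29a3-/- Tlr7-/-, and the mean ± SD of 4 libraries beside each group. In the mitotic and centromere genes the red filled points stand apart, for instance 61.8 to 109 RPM against 18 to 28.6 RPM in WT for Kif11, whereas Kif13b lies between 19.9 and 33.3 RPM in all Ly6C hi libraries.

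At the centromere, Cenpa, the histone H3 variant that marks the site, was read at 58.4, 45.2, 53.7 and 33.5 RPM in WT, at 88.5, 78.3, 121 and 118 RPM in Slc29a3-/- and at 34.4, 35.2, 31 and 39.4 RPM in Slc29a3-/- Tlr7-/- Ly6C hi libraries. It rose by 1.08 ± 0.19 against WT (adjusted P = 0.0011), and its Slc29a3-/- libraries lay above all others, whereas WT and the double mutant overlapped. Among the proteins assembled on Cenpa, Cenpk had the largest difference at 1.38 ± 0.34 (adjusted P = 0.0086), and Cenpt, which links the centromere to the outer kinetochore, rose by 0.91 ± 0.21 (adjusted P = 0.0063), from 16.4 to 21.5 RPM in WT to 27.7 to 47.9 RPM in Slc29a3-/- libraries. Cenpo, a peripheral subunit, was read at 15.6 to 22.2 RPM in WT and 17.9 to 23.5 RPM in Slc29a3-/- libraries, and its difference of 0.17 ± 0.17 did not pass (adjusted P = 0.47). Cenpm, Cenpu and Cenph, at 0.75, 0.69 and 0.62, also did not pass.

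The kinetochore CENPs come and go with each division. Cenpe, itself a kinesin that carries chromosomes to the spindle equator, was read at 28.4, 26.4, 29.4 and 20.7 RPM in WT, 59.6, 39.6, 90.5 and 85.5 RPM in Slc29a3-/- and 23.2, 8.61, 14.3 and 28.4 RPM in Slc29a3-/- Tlr7-/- Ly6C hi libraries (1.30 ± 0.32 against WT, adjusted P = 0.0085). Cenpf, a coiled-coil protein of the outer kinetochore, was at 24.1, 31.9, 23.6 and 23.2 RPM in WT and 58.9, 33.7, 77.7 and 62.6 RPM in Slc29a3-/- libraries (1.10 ± 0.32, adjusted P = 0.021). The lowest Slc29a3-/- library of Cenpf stood close above the highest WT library. The other CENPs gave a single call. Cenpj, a centriole protein, rose by 1.06 ± 0.35 (adjusted P = 0.035), a call lost without WT replicate 1, 2 or 3 or Slc29a3-/- replicate 3 or 4 (0.80 to 1.04), while Cenpb, which binds satellite DNA, differed by -0.24 ± 0.21 (adjusted P = 0.43). Cenpv, at 1.64 to 3.96 RPM in WT and 0.635 to 1.43 RPM in Slc29a3-/- libraries, lay wholly below WT, but its difference of -0.77 ± 0.30 did not pass (adjusted P = 0.068).

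Of the 10 tested transport kinesins 8 were not called. The largest difference among them was that of Kif17, a kinesin-2 motor of dendrites and cilia, at 1.25, 2.15, 2.87 and 0.78 RPM in WT and 4.06, 2.37, 4.36 and 8.42 RPM in Slc29a3-/- libraries (1.04 ± 0.43, adjusted P = 0.083), whose groups overlapped. Kif5b, the ubiquitous heavy chain of kinesin-1, was at 95.4, 80.6, 92.9 and 124 RPM in WT, 122, 145, 179 and 122 RPM in Slc29a3-/- and 125, 142, 126 and 146 RPM in Slc29a3-/- Tlr7-/- Ly6C hi libraries. Its difference of 0.53 ± 0.16 had an adjusted P of 0.022 but stayed under the fold threshold at 1.44-fold. Kif13b, a vesicle motor, differed by 0.18 ± 0.17 (adjusted P = 0.45), Kif1b, which carries mitochondria and vesicles, by -0.36 ± 0.19 (adjusted P = 0.17; 64.2, 75.3, 65.3 and 108 RPM in WT and 70.0, 59.5, 64.3 and 46.5 RPM in Slc29a3-/- libraries), and Kif3a, a subunit of kinesin-2, by -0.29 ± 0.32 (adjusted P = 0.53). For these the spread between libraries was as wide as the difference between groups. Kif13a, an endosome motor, differed by 0.44 ± 0.23 (adjusted P = 0.17).

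A pair of transport kinesins was called lower. Kif1c, a vesicle motor, was read at 71.2, 69.4, 71.4 and 74.4 RPM in WT and at 53.7, 66.3, 39 and 26.1 RPM in Slc29a3-/- libraries (-0.70 ± 0.23, adjusted P = 0.036), and Kif3c, a kinesin-2 subunit, at 22.5, 18.9, 16.7 and 19.4 RPM and at 12.7, 16.1, 11 and 7.7 RPM (-0.70 ± 0.20, adjusted P = 0.02). Replicate 4 of Slc29a3-/- was the lowest library for both, and without it the values were -0.46 (adjusted P = 0.1) and -0.52 (adjusted P = 0.056). Kif3c also lost its call without WT replicate 1 (-0.63, adjusted P = 0.069), and Kif1c lost it without any single WT library (-0.71 to -0.68) or without Slc29a3-/- replicate 3 (-0.64). Another scaling of the libraries changed these calls. With TMM scaling, which set the median of all genes at -0.02, neither was called lower and Kif5b was called higher, and with RLE scaling Kif3c was called lower, Kif1c was not and Kif5b was called higher. All 11 mitotic kinesins and 9 inner centromere genes were called higher under both scalings.

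Among the other kinesins, Kif24, a centriole-associated depolymerase, was read at 3.85 to 6.04 RPM in WT and 7.75 to 18.8 RPM in Slc29a3-/- Ly6C hi libraries (1.05 ± 0.28, adjusted P = 0.012). Kif9, a motor known from cilia and flagella, went the opposite way, from 23.5 to 38.8 RPM in WT to 10.8 to 22.5 RPM in Slc29a3-/- libraries (-0.90 ± 0.23, adjusted P = 0.011). Kif2a, a depolymerase like Kif2c that is used in mitosis and outside it, differed by 0.08 ± 0.12 (adjusted P = 0.68). That all 11 mitotic kinesins were called higher depends on placing Kif2a outside that class. Kif21b, which limits microtubule growth, differed by 0.56 ± 0.21 (adjusted P = 0.057).

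Within the Slc29a3-/- Ly6C hi group the libraries kept a common order across the mitotic genes. Replicate 2 was the lowest library for 11 of 11 mitotic kinesins and 9 of 13 inner centromere genes, and replicate 3 was the highest for 7 mitotic kinesins and replicate 4 for the other 4. The summed mitotic kinesins were 774, 552, 991 and 924 RPM in replicates 1 to 4. The summed levels of the 9 genes of a granulocyte-monocyte progenitor list were 1633, 925.9, 2997 and 2504 RPM in the same libraries, 388.9 to 490.0 RPM in WT and 410.7 to 983.6 RPM in Slc29a3-/- Tlr7-/- libraries. In Slc29a3-/- mice the replicates had the same order by both sums, from replicate 2 as the lowest through 1 and 4 to 3. In WT replicate 4 had the lowest mitotic and the highest progenitor sum. In the double mutant replicate 4 was the highest by both sums, and the lowest sums fell in replicates 3 and 1. The neutrophil sum in Slc29a3-/- mice was lowest in replicate 1. Of the list 6 genes were called higher in Slc29a3-/- than in WT (Ctsg, Elane, Gfi1, Mpo, Ms4a3 and Prtn3) and 1 lower (Flt3), with no gene at 0, and of the neutrophil list 6 were called higher and 2 lower. Markers of lymphocytes and dendritic cells moved down, with all 5 genes listed for T cells and all 4 for NK, for plasmacytoid and for conventional dendritic cells called lower. The part of these cells in the mitotic and centromere genes was not tested.

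**Figure D3:**
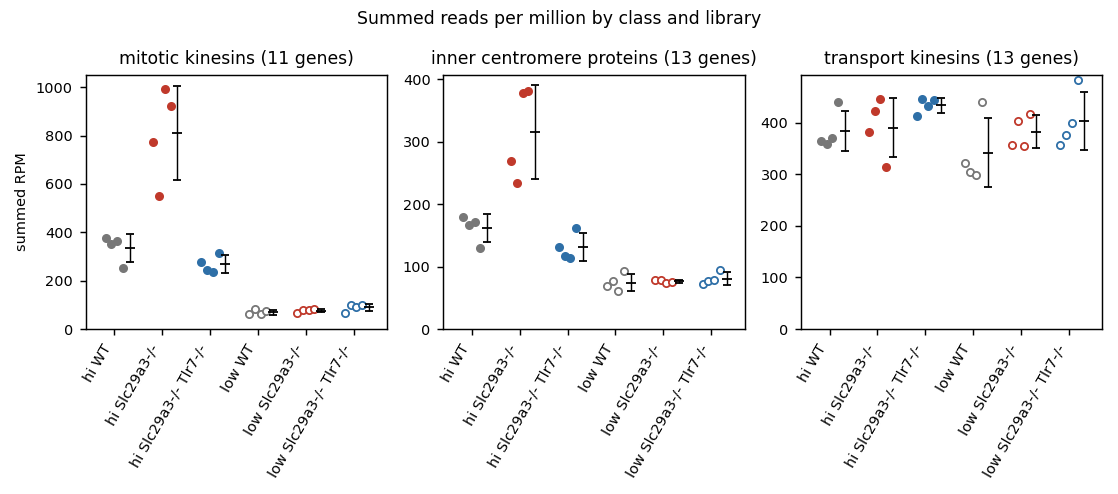
Summed RPM (vertical axes, starting at 0) of the 11 mitotic kinesins, 13 inner centromere genes and 13 transport kinesins in each library, filled points for Ly6C hi and open points for Ly6C low monocytes, with the mean ± SD of 4 libraries per group. The mitotic sums were 251 to 378 RPM in WT, 552 to 991 RPM in Slc29a3-/- and 236 to 316 RPM in Slc29a3-/- Tlr7-/- Ly6C hi libraries, whereas the transport sums of the 3 genotypes overlapped.

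WT replicates 1 to 3 of both subsets carried sequencing barcodes 11 to 16 and all other libraries higher numbers, so that part of the genotype difference and any difference between these sets cannot be told apart except through WT replicate 4. That library was the lowest WT library for 9 of 11 mitotic kinesins and 9 of 13 inner centromere genes. When replicate 4 alone stood for WT, a single sample assumed to vary like the others, 6 members were still called higher, Kif11, Kif2c, Kif22, Kif4, Kif20a and Cenpa, and none lower, with medians of 1.59 for mitotic and 0.08 for transport kinesins. Leaving out single libraries kept 10 or 11 of the mitotic kinesins called, and the exception was Kif14, a midbody motor, which lost its call without WT replicate 2 or 4 or Slc29a3-/- replicate 3 or 4 (1.02 to 1.17, adjusted P 0.051 to 0.068). Cenpf lost its call without WT replicate 1 or 3 or Slc29a3-/- replicate 3 or 4 (0.94 to 1.07, adjusted P 0.053 to 0.07), and from 6 to 9 inner centromere genes were called. Those that dropped out were Cenpn, without WT replicate 3 or 4 or Slc29a3-/- replicate 3 or 4 (0.51 to 0.68), Cenpl, without Slc29a3-/- replicate 3 or 4 (0.81 to 0.84), and Cenpw, without Slc29a3-/- replicate 4 (0.97).

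What the additional loss of Tlr7 changed in Ly6C hi monocytes was read from the single against the double mutant, a comparison that shared the Slc29a3-/- libraries with the preceding one. All 11 mitotic kinesins were higher in Slc29a3-/- cells, by 0.95 (Kif23) to 2.08 (Kif14) with a median of 1.63, against a median of -0.25 for the transport kinesins and -0.12 for all genes. In all, 27 of 44 members were called higher and none lower, where 9.0% of all genes were called higher and 8.22% lower. At an unadjusted P under 0.05 the counts were 28 higher and 1 lower (Kif9, -0.61), against 10.5% and 11.9% of all genes. The median of the mitotic kinesins exceeded that of the transport kinesins by 1.88 (SD between libraries 0.33). The largest difference was that of Cenpf, at 24.1, 6.66, 8.71 and 14.4 RPM in the double mutant, which was 2.13 ± 0.32 (adjusted P = 0.00049). Kif20a had the smallest P, with a difference of 1.98 ± 0.21 (adjusted P = 9.6e-05), and Cenpe differed by 1.89 ± 0.32 (adjusted P = 0.001). Markers of other cells also differed here. Of 9 neutrophil genes 7 were called higher and 1 lower, and of 9 progenitor genes 6 higher and 1 lower. All 4 conventional and 3 of 4 plasmacytoid dendritic cell genes were called lower, as was 1 of 5 T cell genes. No NK cell gene was called. The part of these cells was not tested.

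Among inner centromere genes 11 of 13 were called higher against the double mutant, Cenpc1 and Cenpo being the others, and leaving out single libraries gave 6 to 12. Cenph, Cenpi, Cenpk, Cenpm and Cenpu were those whose calls depended on a library, with adjusted P of 0.052 to 0.13 where lost. Slc29a3-/- replicate 4 was a library whose loss ended the call of each of these 5 genes. Of the transport kinesins, Kif17 was called higher, at 4.06, 2.37, 4.36 and 8.42 RPM against 1.16, 0, 0.079 and 2.73 RPM. Its groups overlapped, and the value of 1.66 ± 0.43 (adjusted P = 0.014) became 1.39 (adjusted P = 0.056) without Slc29a3-/- replicate 4. Kif1c and Kif3c, at -0.57 and -0.38, did not pass against the double mutant (adjusted P = 0.095 and 0.2).

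Between Slc29a3-/- Tlr7-/- and WT Ly6C hi monocytes no member was called by limma, where 0.312% of all genes were called higher and 1.11% lower. At an unadjusted P under 0.05 and the same fold, none was higher and 4 were lower, Kif14 (-0.91), Kif20a (-0.86), Cenpf (-1.03) and Cenpn (-0.66), against 3.12% of all genes higher and 9.44% lower. Kif20a came closest, with an adjusted P of 0.058. The medians were -0.08 for mitotic kinesins, 0.01 for transport kinesins and -0.25 for inner centromere genes, against -0.06 for all genes. The count rose from 0 to 3 without WT replicate 4 and likewise without Slc29a3-/- Tlr7-/- replicate 1.

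**Figure D4:**
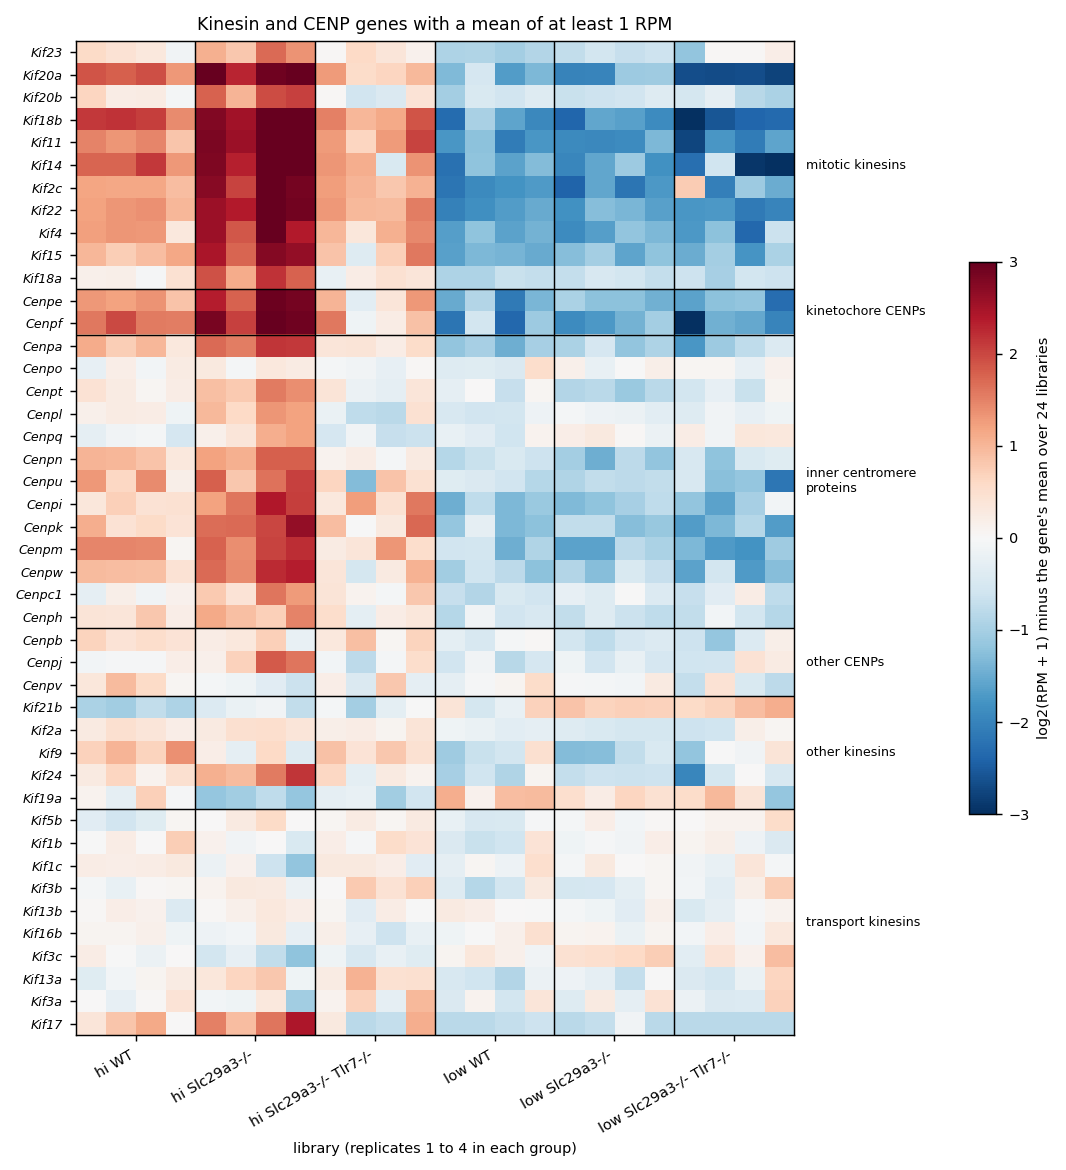
Color shows log2(RPM + 1) minus the gene's mean over 24 libraries for the 44 kinesin and CENP genes with a mean of at least 1 RPM (rows, by class) in every library (columns, replicates 1 to 4 per group), with colors saturating at -3 and 3. Mitotic kinesins and kinetochore CENPs are mostly dark red in Slc29a3-/- Ly6C hi libraries and mostly blue in the Ly6C low libraries, Kif2c in Slc29a3-/- Tlr7-/- Ly6C low replicate 1 (17.3 RPM) being an exception, and the rows of most transport kinesins are pale.

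In Ly6C low monocytes most mitotic kinesins gave few reads in every genotype. Kif11 was at 2.17, 3.5, 1.48 and 2.15 RPM in WT, 1.83, 1.76, 1.89 and 3.18 RPM in Slc29a3-/- and 0.565, 2.14, 1.5 and 2.56 RPM in Slc29a3-/- Tlr7-/- libraries. The 3 genotypes overlapped. Kif20b, at 11 to 19.1 RPM over the Ly6C low libraries, and Kif23 stood closer to their Ly6C hi levels. Kif23 was at 31.6 to 35.2 RPM in WT, 39 to 44.4 RPM in Slc29a3-/- and 28.2, 66.9, 67.2 and 75.6 RPM in Slc29a3-/- Tlr7-/- libraries. Its difference between the double mutant and WT was 0.70 ± 0.25 (adjusted P = 0.08). Without replicate 1 of the double mutant it was 1.02 (adjusted P = 0.004).

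None of the 41 tested members was called between Slc29a3-/- and WT Ly6C low cells by limma, against 1.9% of genes called higher and 2.53% lower. At an unadjusted P under 0.05, Kif21b (0.64) and Kif1a (0.67), a motor of synaptic vesicle precursors, were higher and Cenpt (-0.68) was lower, where 6.15% and 7.05% of all genes were. Between Slc29a3-/- Tlr7-/- and WT cells Kif20a was called lower, at 2.50, 2.46, 2.52 and 2.24 RPM against 7.90, 14.7, 5.90 and 7.74 RPM (-1.48 ± 0.29, adjusted P = 0.014), with 2.28% of genes called higher and 6.03% lower. The call was lost without WT replicate 2, the highest library (-1.24, adjusted P = 0.051), and when replicate 4 alone stood for WT. The neutrophil list was lower in the same comparison, with 6 of 6 tested genes called lower and Ly6g at 0 in the double mutant. It summed to 655.9, 1318, 579.9 and 34.72 RPM in WT replicates 1 to 4 and to 2.462 to 41.87 RPM in the double mutant. By this list WT replicate 4 lay within the double mutant range. By the progenitor list it lay above that range, at 33.64 RPM. NK cell genes (4 of 4 called lower) summed to 20.62 to 112.7 RPM in WT and 2.144 to 23.99 RPM in the double mutant. Progenitor genes (4 of 7 tested called lower) summed to 33.64 to 76.38 and 19.18 to 23.11 RPM, with Ms4a3 at 0 in the double mutant. Of the T cell list 3 of 4 tested genes were called lower (Cd3e, Cd3g and Lck) and Cd4 was not. The summed T cell list overlapped (16.3 to 71.81 and 19.74 to 45.15 RPM) and had the higher median in the double mutant (34.99 against 20.86 RPM in WT). The part of these cells in the result was not tested. At an unadjusted P under 0.05, 2 members were higher and 3 lower, against 6.08% and 14.6% of all genes. Between Slc29a3-/- and Slc29a3-/- Tlr7-/- Ly6C low cells no member was called by limma, against 1.22% higher and 0.708% lower of all genes, and 4 were higher and 1 lower at an unadjusted P under 0.05, against 10.8% and 2.92%. The medians of all genes in these comparisons were 0.0, -0.1 and 0.08. The mitotic minus transport difference of medians was -0.23 for Slc29a3-/- and -0.25 for Slc29a3-/- Tlr7-/- against WT. Between the mutants it was 0.21. The SD between single libraries was 0.3, which is not the standard error of these differences.

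The genotype difference in Ly6C hi cells was set against that in Ly6C low cells by an interaction over all 24 libraries. For Slc29a3-/- against WT, 6 of 11 mitotic kinesins had a larger difference in Ly6C hi cells, led by Kif11 (1.72 ± 0.40, adjusted P = 0.007), and so did Cenpt (1.60 ± 0.31, adjusted P = 0.0017) and Cenpn (1.12 ± 0.32, adjusted P = 0.027), the latter with 6 single libraries whose loss ended the call. The mitotic count includes Kif18a, which entered the fit only through Ly6C hi libraries and held at most 0.56 RPM in Ly6C low libraries. The order of the genotypes was opposite in the subsets for Cenpt, which stood at 27.7 to 47.9 RPM in Slc29a3-/- and 16.4 to 21.5 RPM in WT Ly6C hi libraries but at 6.70 to 8.50 RPM and 9.34 to 16.4 RPM in the Ly6C low libraries. The interaction was below 0 for the transport kinesins Kif1a (-1.60 ± 0.39, adjusted P = 0.01) and Kif3c (-1.16 ± 0.31, adjusted P = 0.017). In Ly6C low libraries Kif3c was read at 17.6 to 24.5 RPM in WT and 26.7 to 32.5 RPM in Slc29a3-/- mice, the reverse of its order in Ly6C hi cells, and Kif1a at 0.137 to 1.05 and 0.875 to 2.15 RPM. In all, 8 members were called above 0 and 2 below, against 4.11% and 4.65% of all genes, and none was called when replicate 4 alone stood for WT. Markers of other cells moved with this interaction, 7 of 9 neutrophil and 7 of 9 progenitor genes being above 0 and 4 of 4 tested erythroid genes below. The erythroid list summed to 80.94 to 104.3 RPM in Slc29a3-/- and 2.738 to 9.35 RPM in WT Ly6C low libraries, and to 1.427 to 5.333 and 3.666 to 5.828 RPM in the Ly6C hi libraries, with no gene at 0. The part of these cells was not tested. Kif4 (1.47 ± 0.46, adjusted P = 0.044) kept its call in 5 of 22 alternatives.

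For Slc29a3-/- against Slc29a3-/- Tlr7-/- the interaction was above 0 for 14 members, 8 of them mitotic kinesins, and below 0 for none, against 4.53% and 4.41% of all genes. Kif18a, which entered the fit only through Ly6C hi libraries, is again among these mitotic kinesins. The same 4 erythroid genes were below 0 here, and 3 of 9 neutrophil and 2 of 9 progenitor genes above. Kif2c had the largest value, 2.66 ± 0.53 (adjusted P = 0.0027). The double mutant Ly6C low libraries read Kif2c at 17.3, 1.59, 4.03 and 2.80 RPM, and without the first of these the value was 2.08. Kif11, Kif4 and Cenpe each lost their call without 9 or 10 single libraries. Cenpq, an inner centromere protein whose differences in Ly6C low cells were small, had an interaction of 1.29 ± 0.32 (adjusted P = 0.012). No transport kinesin was called, their median being 0.05.

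**Figure D5:**
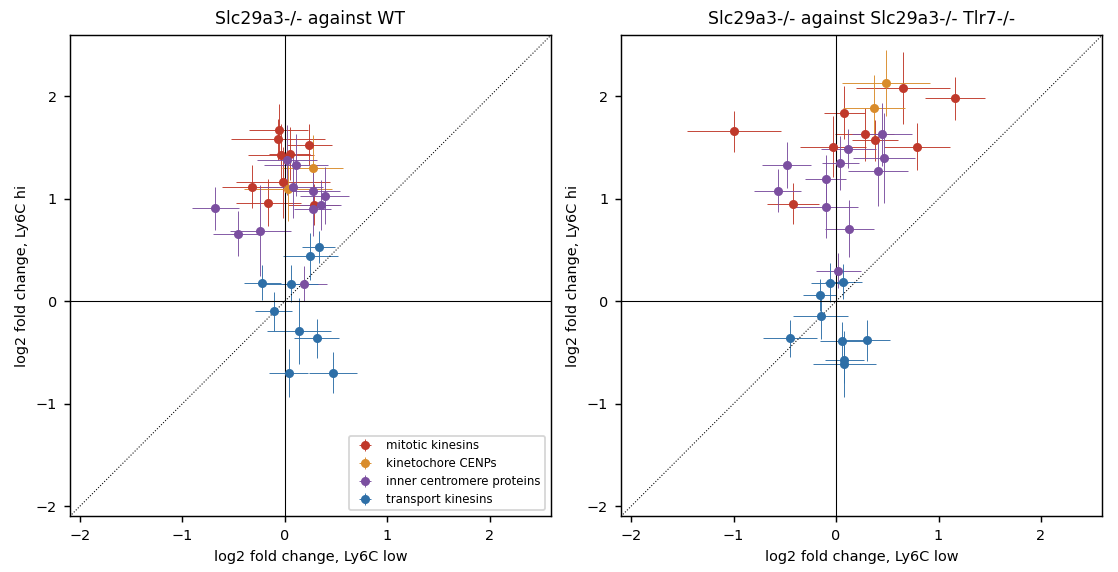
Log2 fold change on the log2(RPM + 1) scale in Ly6C hi (vertical) against Ly6C low monocytes (horizontal) for the members tested in both subsets, with SE bars in both directions and colors for the class, for Slc29a3-/- against WT on the left and against Slc29a3-/- Tlr7-/- on the right, where the dotted line marks equal differences. On the left the 9 mitotic kinesins lie at 0.94 or more vertically and between -0.32 and 0.28 horizontally, and the blue transport kinesins lie around both axes. Both panels share the Slc29a3-/- libraries.

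The subsets themselves differed in every genotype. All 11 mitotic kinesins were called higher in Ly6C hi than in Ly6C low cells of WT and of Slc29a3-/- mice, with medians of 2.94 and 4.28. In Slc29a3-/- Tlr7-/- mice 9 of 11 were called higher, with a median of 2.45. For Kif18a, which was called in each genotype, this is no test, as stated. The medians of the transport kinesins were 0.19, -0.08 and 0.13, and those of all genes 0.07, -0.1 and 0.12. When replicate 4 alone stood for WT, 6 members were called in WT in place of 26. Of 47 tested members 25 were called higher and 1 lower in WT, 32 and 4 in Slc29a3-/- and 25 and 2 in Slc29a3-/- Tlr7-/- mice, where 17.5%, 16.5% and 18.7% of all genes were called higher and 8.46%, 18.5% and 9.64% lower. The higher counts include Kif18a and Cenph in every genotype and Kif17 in WT and Slc29a3-/- mice, whose calls are no test. Kif18b, which controls astral microtubule length, had differences of 3.64 ± 0.29, 4.76 ± 0.29 and 4.04 ± 0.29 in the 3 genotypes. Kif20b and Kif23, both at 0.51, were the mitotic kinesins that did not pass in the double mutant (adjusted P = 0.1 and 0.093). The neutrophil and progenitor lists were also called higher in Ly6C hi cells, for 8 of 9 and 8 of 9 genes in WT, and their part in these differences was not tested.

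The members that were lower in Ly6C hi cells were a different set. Kif21b was called lower in all genotypes (-1.0 ± 0.22, -1.09 ± 0.22 and -1.16 ± 0.22), at 32.7 to 40.6 RPM in WT Ly6C hi and 47.4 to 112 RPM in WT Ly6C low libraries. Kif3c (-1.26 ± 0.22), Kif1a (-1.11 ± 0.28) and Kif19a (-1.48 ± 0.33), the last a motor that sets ciliary length, were called lower in Slc29a3-/- mice. Kif1a and Kif19a were read at no more than 3.70 RPM in any library. Cenpq was called higher in Slc29a3-/- (0.62 ± 0.22) and lower in Slc29a3-/- Tlr7-/- mice (-0.68 ± 0.22), and 4 and 3 single libraries respectively ended these calls. Among transport kinesins Kif17 held at most 0.631 RPM in Ly6C low libraries, and Kif13a was called higher in Slc29a3-/- (0.71 ± 0.26) and Slc29a3-/- Tlr7-/- mice (0.70 ± 0.26), with 4 and 6 single libraries whose loss ended the call. Cenpb was called higher in all genotypes (0.70, 0.81 and 1.0), in WT not without 4 single libraries. Kif24 (0.98, 2.08 and 0.91) was likewise called in all of them, with 5 such libraries in WT and 4 in the double mutant, and Kif2a (0.56, 0.87 and 0.45) in Slc29a3-/- mice. Cenpo differed by 0.20, 0.18 and -0.09 and did not pass in any genotype. Kif9 was called higher in all 3 genotypes (1.38, 0.98 and 0.87), although its calls in the mutants did not hold without 3 and 5 single libraries.

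Genes that work with the kinesins and CENPs were followed on lists chosen for function. In these comparisons 8.15% of all genes were called higher and 14.3% lower than in WT, and 9.0% and 8.22% against Slc29a3-/- Tlr7-/-. In Slc29a3-/- Ly6C hi cells 11 of 15 tested kinetochore partners were called higher than in WT (median 1.23) and 12 of 15 against Slc29a3-/- Tlr7-/- (median 1.42). These include Ndc80 (1.64 ± 0.27, adjusted P = 0.00081) and Spc25 (1.67 ± 0.16, adjusted P = 4.6e-05), subunits of the complex that holds microtubules, and Hjurp (1.13 ± 0.19), which deposits Cenpa. Of 15 checkpoint and passenger genes 13 were called higher than in WT (median 1.28) and 12 against the double mutant (median 1.72), among them Aurkb (1.35 ± 0.18, adjusted P = 0.00023), the kinase carried by Kif20a. Mad1l1 differed by -0.28 ± 0.16 (adjusted P = 0.22). The proliferation markers Mki67, Top2a and Cdk1 rose by 1.26, 1.44 and 1.65.

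None of 16 tested dynein and dynactin genes, the retrograde transport machinery, was called in either comparison, with medians of 0.02 and -0.10, against 8.15% of all genes called higher and 14.3% lower than in WT, and 9.0% and 8.22% against the double mutant. Of the 4 C-terminal kinesins 2 were called higher than in WT and 1 lower. Kifc1, which focuses spindle poles, rose by 1.52 ± 0.30 (adjusted P = 0.0023), and its near-identical copy Kifc5b by 1.06 ± 0.26, although reads of the pair could be assigned to either gene. Kifc3, a motor of epithelial junctions and apical transport, fell by 0.79 (SE 0.22, adjusted P = 0.017), and Kifc2 differed by -0.62 ± 0.24 (adjusted P = 0.067). The light chains Klc1, Klc2 and Klc4 and the kinesin-2 adaptor Kifap3 were at -0.39, -0.31, -0.44 and -0.54 and did not pass.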

How the data were processed

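Ly6C hi and Ly6C low CD11b+ cells sorted from mouse spleens were measured with a targeted amplicon panel (Ion AmpliSeq Transcriptome Mouse, Ion Proton), and groups follow the sample labels. The authors deposited 1 table of RPM values, scaled to the library total, with no counts. Their methods name the AmpliSeqRNA plug-in of Torrent Suite for the read files, then Cutadapt, STAR on mm10, HTSeq for read counts and DESeq2, and which step wrote the table is not given in the sources used here. Entries of 0.0001 stand for no read and were set to 0. In an amplicon panel each gene is read at 1 place, so a deletion elsewhere in a gene leaves its value, and levels between genes are not comparable.

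Values were tested as log2(RPM + 1) with limma 3.58.1 (trended variance, R 4.3.3) on all genes reaching 1 RPM in at least 4 libraries of the fit. Genotypes were compared within a subset over its 12 libraries, and subsets and interactions over all 24. All tests were two-sided, and P values were Benjamini-Hochberg adjusted over all genes. A call needed a fold change over 1.5 and an adjusted P under 0.05. Where separate animals per library and shared animals between subsets are not stated, P values measure the spread between these libraries only. The fit was tested on simulated data with 200 changed genes. Named with their values in the libraries or the range of these were 14 fixed examples, the 3 members of each class read most strongly and any called member that went against most of its class, and in each comparison up to 3 called members with the largest rise and fall were eligible. Members named beyond this rule were named to account for counts or because a call depended on a library. The members, classes and lists were chosen with earlier results of these data known. RefSeq promoters (GRCm38.p6) were searched with Python 3.11.15.

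Replicate numbers did not pair genotypes (correlation of deviations -0.193 to 0.157). Between the subsets they correlated in WT (0.259 to 0.619, every pair above 0.1) but not throughout in Slc29a3-/- (-0.081 to 0.255) or Slc29a3-/- Tlr7-/- mice (-0.456 to 0.338). In both subsets WT replicates 1 to 3 carried barcodes 11 to 16 and replicate 4 a higher one. Shared animals and this split of barcodes cannot be told apart in the WT correlation. With inferred totals of 12311031 to 14572210 reads, differences under about 3 reads were not detectable.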

Additional observations from a re-analysis of the deposited data

Results flagged for a closer look

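Among 168 sets of 4 libraries examined for a library far from the others by Dixon's ratio (at its 95% critical value, which chance passes in about 1 of 20 sets), 12 stood out. In WT Ly6C hi cells replicate 4 was low for Kif2c (19.2 RPM against 23.0 to 23.5 in the others) and for Kif4 (5.38 against 11 to 11.9 RPM), and replicate 2 was high for Cenpf (31.9 against 23.2 to 24.1 RPM). In Slc29a3-/- Tlr7-/- Ly6C hi cells replicate 4 was low for Kif1c at 47.7 RPM (69.3 to 74.6 in the others), and replicate 1 was the only library with reads of Kif1a, at 0.385 RPM. In Ly6C low cells the double mutant replicate 1 was low for Kif23 (28.2 against 66.9 to 75.6 RPM), and its replicate 3 was low for Cenpo (15.5 against 19.4 to 20.2 RPM). WT Ly6C low replicate 4 was high for Cenpo (27.1 against 13.6 to 14.2 RPM) and replicate 2 low for Kif19a (1.44 against 3.23 to 3.70 RPM). In Slc29a3-/- Ly6C low cells replicate 4 was high for Kif11 (3.18 against 1.76 to 1.89 RPM), replicate 3 was high for Kif17 (0.631 RPM) and replicate 1 low for Kif24 (1.75 against 1.89 to 1.92 RPM).

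The genotype difference itself differed between the subsets by the limma interaction for 18 of the named pairs of gene and comparison, given as the Ly6C hi difference minus the Ly6C low difference. For Slc29a3-/- against WT these were Kif11 (1.72), Cenpt (1.6), Kif4 (1.47), Kif20a (1.44), Kif20b (1.39), Kif22 (1.29), Kif3c (-1.16) and Kif1a (-1.6). For Slc29a3-/- against Slc29a3-/- Tlr7-/- they were Kif2c (2.66), Kif20b (1.75), Cenpt (1.65), Kif4 (1.53), Cenpe (1.52), Kif23 (1.38), Cenpa (1.37), Kif11 (1.36), Cenpq (1.29) and Kif22 (1.2). Both sets of values share the Slc29a3-/- libraries.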

How the results depend on the processing

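No called value changed direction in the alternatives run. Of the alternative log2 fold changes of the 28 genes named by the rule given above, 4805 stayed called or stayed not called, 158 lost and 65 gained a call. The edgeR and DESeq2 count tests on reads recovered from the RPM steps were not run. With zeros set to 0, low values were whole multiples of 1 read. The check set for using them as counts met zeros as written, 0.0001, and for that reason did not pass. With replicate 4 alone for WT, the members called were 6 for Slc29a3-/- against WT in Ly6C hi cells (27 in the report), 6 for the subsets in WT (26), 0 for the interaction with WT (10) and 0 for the double mutant against WT in Ly6C low cells (1), and the mitotic minus transport difference for Slc29a3-/- against WT in Ly6C low cells was 0.27. At unadjusted P the counts were 4 for the double mutant against WT in Ly6C hi cells, 3, 5 and 5 for Slc29a3-/- against WT, the double mutant against WT and Slc29a3-/- against the double mutant in Ly6C low cells, and 23 and 26 for the interactions. Requiring a mean of 10 RPM, which tests fewer members, gave 17 for Slc29a3-/- against the double mutant in Ly6C hi cells, 15, 21 and 16 for the subsets in WT, Slc29a3-/- and double mutant mice, 0 for the double mutant against WT in Ly6C low cells, and mitotic minus transport differences of 0.13 for the double mutant against WT and -0.17 for Slc29a3-/- against the double mutant in Ly6C low cells. A pseudocount of 0.1 gave 1 for Slc29a3-/- against the double mutant in Ly6C low cells, 8 for its interaction, and a difference of -0.6 for the double mutant against WT in Ly6C low cells. For the latter, TMM and RLE scaling each gave 2 calls, 2 groups only gave 0 and all 24 libraries in 1 model gave 4. One model of 24 libraries gave 1 call each for the double mutant against WT in Ly6C hi cells and Slc29a3-/- against the double mutant in Ly6C low cells, and 2 groups only gave 1 for Slc29a3-/- against WT in Ly6C low cells. The cause of these changes was not tested.

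Over all genes, the split of higher to lower calls for Slc29a3-/- against WT in Ly6C hi cells was 861 to 1507 in the report, 1185 to 1140 with TMM and 1147 to 1182 with RLE scaling. For Slc29a3-/- against the double mutant it was 951 to 868, 1134 to 571 and 1096 to 611. For the double mutant against WT in Ly6C low cells it was 235 to 622, 342 to 564 and 441 to 458.

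With the replicate number as a block the counts were 26 for Slc29a3-/- against WT, 27 against the double mutant and 0 for the double mutant against WT in Ly6C hi cells, 2 for the double mutant against WT in Ly6C low cells, 26, 34 and 24 for the subsets in WT, Slc29a3-/- and double mutant mice, and 12 and 14 for the interactions. In WT, where replicate numbers correlated between the subsets, the block left the count at 26.

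Leaving out 1 library at a time gave 21 to 28 calls for Slc29a3-/- against WT, 20 to 29 against the double mutant and 0 to 3 for the double mutant against WT in Ly6C hi cells. In Ly6C low cells it gave 0 to 1 (1 without WT replicate 4), 0 to 1 (1 without replicate 1 of the double mutant) and 0 to 4 (0 without WT replicate 2, 4 without replicate 1 of the double mutant). The subset counts were 24 to 28 in WT, 33 to 37 in Slc29a3-/- and 22 to 28 in double mutant mice, and the interactions 8 to 13 and 11 to 17. The mitotic minus transport difference in Ly6C hi cells was 1.28 to 1.64, 1.62 to 2.06 and -0.24 to -0.02, and in Ly6C low cells -0.34 to -0.1, 0.11 to 0.38 and -0.38 to -0.17.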

Other observations

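In Ly6C low cells a few mitotic regulators were lower in Slc29a3-/- Tlr7-/- than in WT mice together with Kif20a. Plk1, a kinase of mitotic entry and kinetochores, differed by -1.53 and Aurka, the spindle pole kinase, by -1.03, and the kinetochore genes Pmf1 and Stra13 by -1.31 and -0.97. These 4 were all the genes called among 14 kinetochore partners and 13 checkpoint and passenger genes tested there, and none was called higher, where 6.03% of all genes were called lower and 2.28% higher. Kifc1 and the proliferation markers Mki67, Top2a and Cdk1 were not called. Neutrophil, NK cell, progenitor and T cell genes were called lower in the same comparison (6 of 6, 4 of 4, 4 of 7 and 3 of 4 tested). The neutrophil sum of WT replicate 4 (34.72 RPM) lay within the double mutant range and its progenitor sum (33.64 RPM) above that range. The part of these cells was not tested.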
